A study of Xenopus laevis with 12 samples.

Results

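The solute carriers are the membrane proteins whose gene symbols begin with SLC or SLCO, and 103 genes of this superfamily were measured in Xenopus laevis animal caps among the 6505 gene names of the array. They were taken as every gene whose symbol in the array's annotation, after the homeolog ending .L or .S was removed, reads slc or slco followed by a number. The 103 genes were covered by 131 of the 15503 probe sets tested and fell into 40 numbered families. A gene was represented by its brightest probe set, by mean log2 signal over all arrays, and 24 genes had other probe sets that were compared with it. Of the 103 genes, 79 had 1 probe set and 16 had probe sets of both homeologs, the gene copies on the L and S subgenomes of this allotetraploid frog. No probe set of the superfamily had more than 1 symbol. 1 gene that the naming rule takes in, slc9a3r1, encodes a scaffold protein that binds transporters and not a transporter.

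Caps are explants of the embryo's animal pole that form epidermis when left alone, and treatment with activin and retinoic acid directs them towards kidney and other mesodermal and endodermal fates. 4 groups of 3 arrays were compared, with 12 caps pooled in each RNA. AcRA caps were uninjected and received 10 ng/ml activin and 0.0001 M retinoic acid, and C caps were uninjected and untreated. Caps labelled lhx1-AS/AcRA came from embryos injected with 800 pg of an antisense oligonucleotide against lhx1, a LIM-homeodomain transcription factor of the organizer and the kidney field, and were treated as AcRA caps. lhx1-AS caps came from injected embryos and were untreated. The caps were grown for 24 h at 14 C until embryonic stage 12.5 was reached, per the labels, in experiments I, II and III, each with 1 array of every group. Signals are listed in that order of experiments throughout. A control oligonucleotide was not part of the design, so what injection did through lhx1 and what it did otherwise cannot be told apart. RNA of the targeted gene was not lower after injection in treated caps, with lhx1 signals of 1144, 991 and 1614 in caps labelled lhx1-AS/AcRA, 316, 823 and 779 in AcRA caps, 1.55, 42.6 and 3.2 in lhx1-AS caps and 19.8, 2.19 and 2.6 in C caps. lhx1 was not called in caps labelled lhx1-AS/AcRA against AcRA caps (log2 change 1.06 ± 1.05, limma adjusted p = 0.62). Nor was it in lhx1-AS caps against C caps (log2 change 0.30 ± 1.05, adjusted p = 0.912). As lhx1 RNA was not lower in the treated injected group, that group is called by its label, and every direction given for it rests on that label. The caps are mixed tissue, in which fewer cells of a type and less RNA per cell cannot be told apart.

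Solute carriers move amino acids, sugars, organic acids, vitamins, ions and metals across the plasma membrane and the membranes of organelles, as exchangers, as uniporters or coupled to the gradients of sodium or protons. In the kidney tubule they take filtered solutes back from the lumen, and the pronephros of frog larvae uses many of the same genes in the same order along the tubule. In the skin of frog embryos, ionocytes carry anion exchangers of the SLC4 and SLC26 families beside carbonic anhydrases and a proton pump.

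With injection more carriers were called lower than higher, as were more of all probe sets at the deposited scaling. The treatment moved carriers both ways. A gene was called when its limma p, adjusted over all 15503 probe sets, was under 0.05. Carriers were counted on the brightest probe set of each gene. The shares beside them cover all probe sets, dim and unnamed ones included, so their bases are unlike. In AcRA caps against C caps, 6 carrier genes were higher and 4 lower, beside 3.09% and 2.62% of all probe sets. In caps labelled lhx1-AS/AcRA against AcRA caps, 6 were higher and 18 lower, beside 2.7% and 6.94% of all probe sets. In lhx1-AS caps against C caps, 2 were higher and 12 lower, beside 2.52% and 4.47%. In caps labelled lhx1-AS/AcRA against lhx1-AS caps, 12 were higher and 11 lower, beside 4.0% and 4.09%. In the test of the difference of AcRA responses, that of injected minus that of uninjected caps, 1 gene was called with a positive and 1 with a negative difference, beside 0.168% and 0.271% of probe sets. 39 of the 103 genes were called in at least 1 of these 5 tests and 25 in at least 2, whereas 64 were called in none. How many of all probe sets were called in at least 1 of the 5 tests was not counted, so these 3 numbers have no share to be read against.

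**Figure D1:**
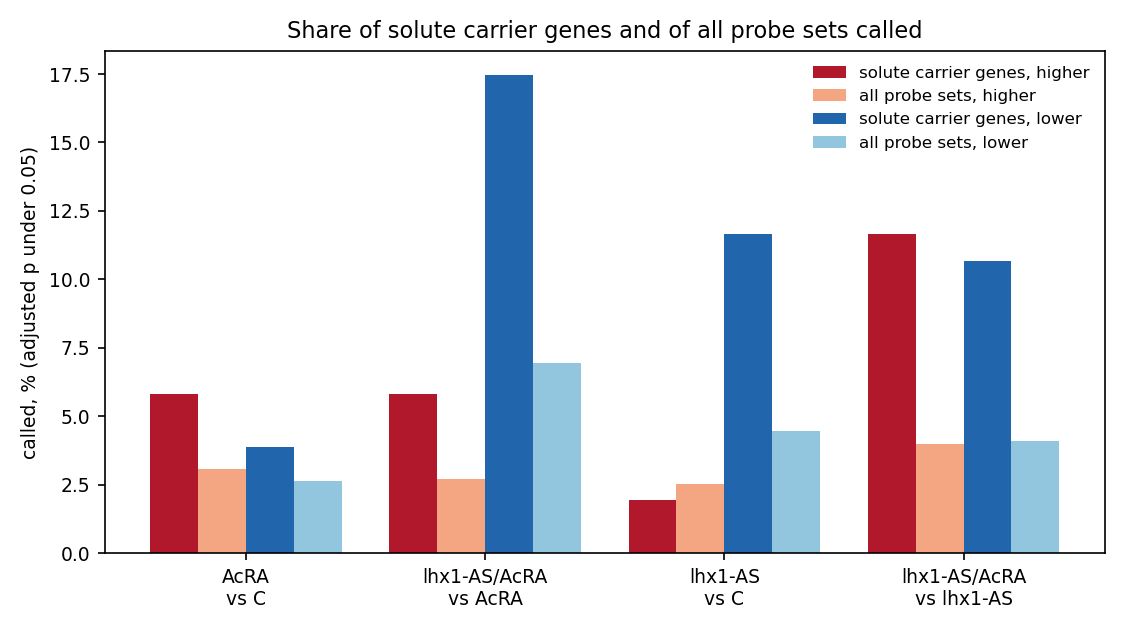
Share of the 103 solute carrier genes and of all 15503 probe sets that were called higher or lower (limma, adjusted p under 0.05) in each of the 4 comparisons, in percent on the vertical axis. The longest bar is that of the carriers lower in caps labelled lhx1-AS/AcRA than in AcRA caps, 18 genes beside 6.94% of all probe sets.

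With experiment as a block, the same tests gave 11 higher and 10 lower carriers in AcRA caps against C caps, beside 5.29% and 5.14% of all probe sets. They gave 11 and 20 in caps labelled lhx1-AS/AcRA against AcRA caps, beside 6.98% and 11.9%, and 6 and 23 in lhx1-AS caps against C caps, beside 7.41% and 10.4%. The block gave 17 and 15 in caps labelled lhx1-AS/AcRA against lhx1-AS caps, beside 6.34% and 6.64%, and 1 and 3 for the difference, beside 0.671% and 0.871%. All calls of carriers made without the block were also made with it. In AcRA caps against C caps the block added slc4a1, slc7a3, slc7a7, slc7a8 and slc25a25 as higher, and slc3a2, slc19a3, slc25a22l, slc41a3, slc44a1 and slc49a3 as lower. Added in caps labelled lhx1-AS/AcRA against AcRA caps were slc7a5, slc31a2, slc35f2, slc52a1 and slc66a1l as higher and slc43a1 and slc49a3 as lower. In lhx1-AS caps against C caps it added slc7a3, slc25a17, slc31a2 and slc52a1 as higher, and slc2a2, slc2a9, slc3a2, slc15a2, slc16a6, slc25a39, slc27a6, slc29a2, slc35d1, slc41a3 and slc49a3 as lower. Added in caps labelled lhx1-AS/AcRA against lhx1-AS caps were slc2a2, slc15a2, slc17a5, slc25a17 and slc25a29 as higher and slc3a2, slc33a1, slc41a3 and slc44a1 as lower. For the difference the block added slc22a4 and slc30a2, both negative. The median change of the 103 genes lay between -0.21 and -0.17 on the log2 scale in the 4 comparisons, where the median of all probe sets lay between -0.01 and 0.02. Array medians lay between 106 and 123 in injected caps and between 124 and 149 in uninjected caps at equal trimmed means. Setting arrays to a common median moved the median of all probe sets to 0.26 in caps labelled lhx1-AS/AcRA against AcRA caps and to 0.24 in lhx1-AS caps against C caps. Under that scaling the carriers split into 7 higher and 14 lower, and 3 higher and 10 lower, in those comparisons, and all probe sets into 736 higher and 750 lower (419 and 1076 as deposited), and 787 higher and 477 lower (391 and 693 as deposited). The median of the 103 carriers then turned positive, 0.06 and 0.03, and so lay below the median of all probe sets as it had before. Arrays were also left out 1 at a time, each given by its group and experiment, as in AcRA array II, and 43 of the 73 calls of carriers were kept without each array in turn. The 18 lower carriers in caps labelled lhx1-AS/AcRA against AcRA caps became 12 without AcRA array I, and the 12 lower ones in lhx1-AS caps against C caps became 7 without C array I and 6 without C array III. The 4 lower carriers in AcRA caps against C caps became 1 or 2 without C array I or III or AcRA array II or III, and the 6 higher ones in caps labelled lhx1-AS/AcRA against AcRA caps became 3 without AcRA array III or lhx1-AS/AcRA array I. The 2 higher carriers in lhx1-AS caps against C caps became 1 without C array I or III or lhx1-AS array II or III. Where a call was lost, the arrays named beside it ended it each alone.

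The model let the variance follow the signal, and 24 of the 73 calls were lost without that trend (adjusted p between 0.056 and 0.151). They were slc2a1, slc18a1, slc25a17, slc30a1 and slc38a2 in AcRA caps against C caps, and slc3a2, slc4a11, slc5a8.1, slc7a3, slc17a9, slc25a22l, slc30a1 and slc37a4 in caps labelled lhx1-AS/AcRA against AcRA caps. In lhx1-AS caps against C caps they were slc4a11, slc19a3, slc22a5, slc25a13, slc25a24, slc25a28 and slc37a1. The others were slc7a3 and slc17a9 in caps labelled lhx1-AS/AcRA against lhx1-AS caps, and both calls of the difference. A fit of the compared groups alone lost 10 calls (adjusted p between 0.0535 and 0.0965). Those were slc2a1 and slc30a1 in AcRA caps against C caps, slc4a11, slc25a22l, slc30a1 and slc37a4 in caps labelled lhx1-AS/AcRA against AcRA caps, and slc7a8, slc13a3, slc17a9 and slc49a3 in caps labelled lhx1-AS/AcRA against lhx1-AS caps. Adding 64 to the signals, which shrinks the changes of dim genes by construction, moved 32 of the 73 called changes by over 1.5 times, all towards 0, and ended 1 call.

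The heat map of the called genes orders them by what they carry, and each class is described in turn.

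**Figure D2:**
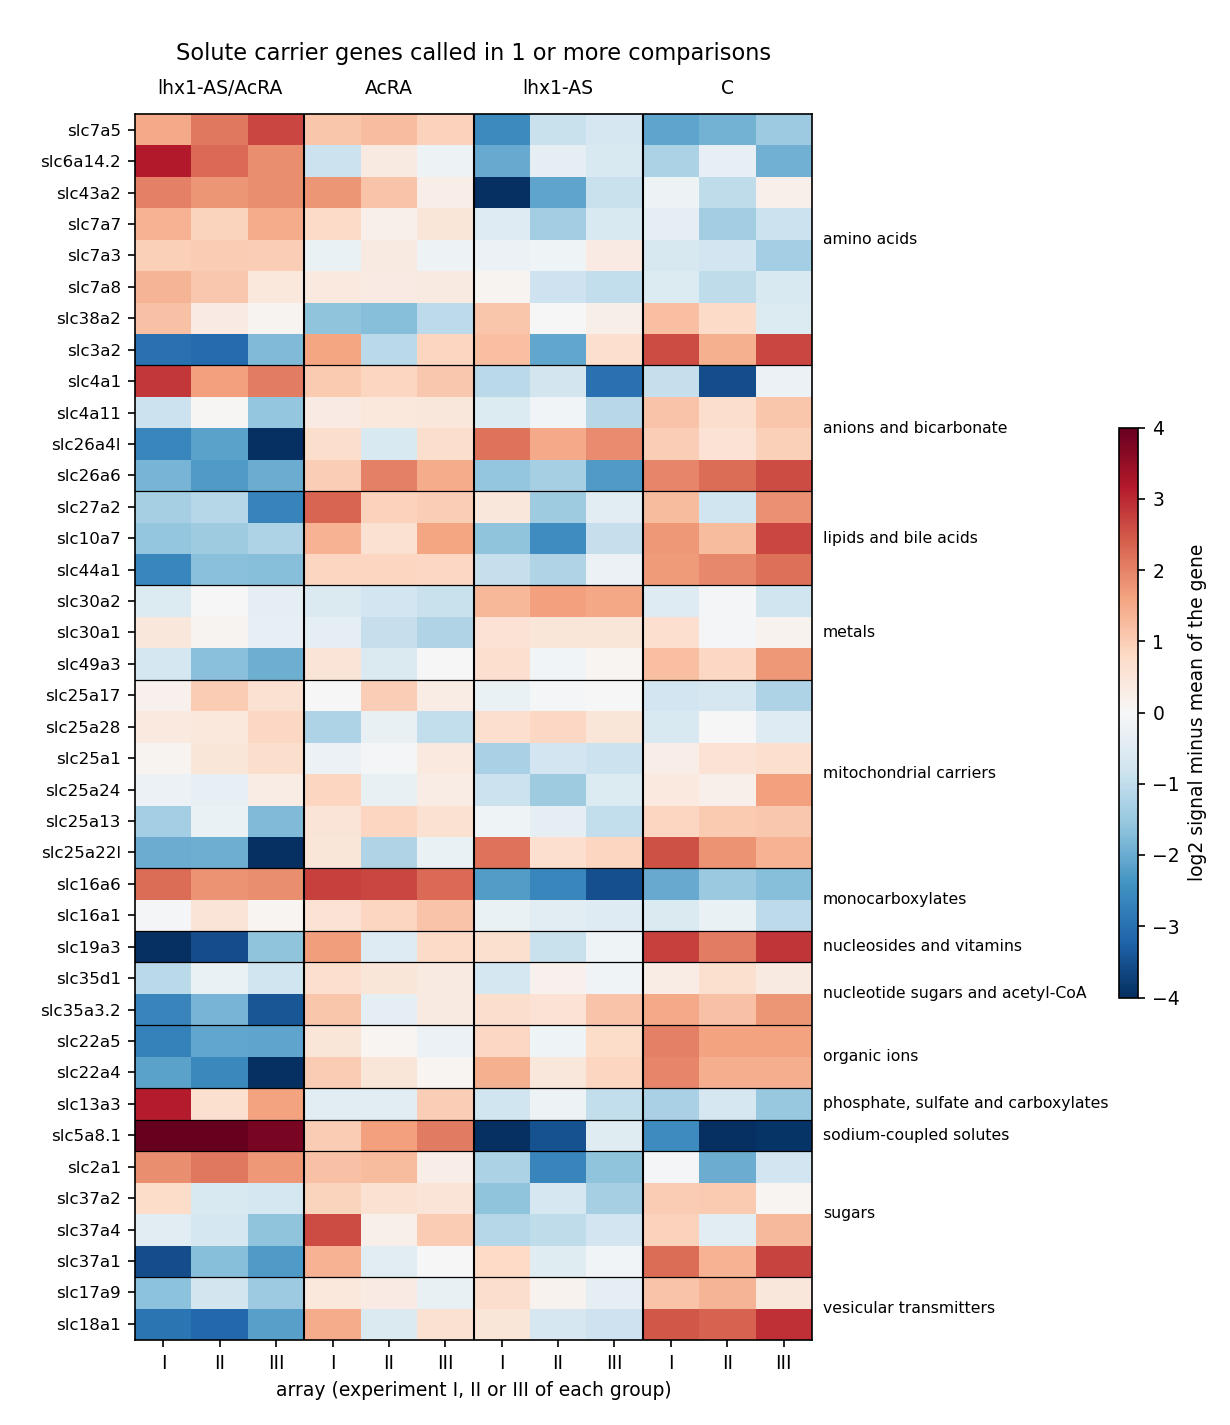
log2 signal of the 39 called solute carrier genes (rows, grouped by transport class) on each of the 12 arrays (columns, by group and experiment), relative to the mean of the gene over all arrays. Colours are limited at 4 in either direction. slc7a5, slc16a6 and slc5a8.1 are red in both treated groups, and slc26a6, slc10a7 and slc44a1 are blue in both injected groups.

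Among the 14 carriers of amino acids and peptides, 1 was higher and 1 lower in AcRA caps than in C caps. Of all probe sets 3.09% and 2.62% were. In caps labelled lhx1-AS/AcRA against AcRA caps 3 were higher and 1 lower, beside 2.7% and 6.94% of all probe sets. In caps labelled lhx1-AS/AcRA against lhx1-AS caps 6 were higher and 0 lower, beside 4.0% and 4.09%. 4 of the 6 were among the 5 SLC7 genes. 0 of the 14 were called in lhx1-AS caps against C caps, beside 2.52% and 4.47%. With the block 1 was higher and 2 lower there, beside 7.41% and 10.4%. The block gave 4 higher and 2 lower in AcRA caps against C caps, beside 5.29% and 5.14%. The 4 higher were SLC7 genes, slc7a3 (adjusted p = 0.029) and slc7a8 (adjusted p = 0.0252) among them. slc7a5, the LAT1 light subunit that exchanges large neutral amino acids, had signals of 1680.3, 2548 and 3762 in caps labelled lhx1-AS/AcRA, 1256, 1387 and 1111 in AcRA caps, 99.8, 318 and 369 in lhx1-AS caps and 136, 158 and 213 in C caps. All treated arrays lay above all untreated ones. The change was called in AcRA caps against C caps (log2 change 2.91 ± 0.43, adjusted p = 0.000747) and in caps labelled lhx1-AS/AcRA against lhx1-AS caps (log2 change 3.48 ± 0.43, adjusted p = 0.0001). slc7a5 had a change against lhx1-AS caps of 2.88 without lhx1-AS array I, still called. Caps labelled lhx1-AS/AcRA lay above AcRA caps without overlap or a call (log2 change 1.02 ± 0.43, adjusted p = 0.174, or 0.0398 with experiment as a block).

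slc7a7, the y+LAT1 light subunit for cationic and neutral amino acids, had signals of 444, 313 and 473 in caps labelled lhx1-AS/AcRA, 289, 195 and 238 in AcRA caps, 119, 65.6 and 111 in lhx1-AS caps and 131, 65.5 and 93.1 in C caps. The treated groups again lay above the untreated ones, with a call in caps labelled lhx1-AS/AcRA against lhx1-AS caps (log2 change 2.08 ± 0.38, adjusted p = 0.0023). There was a value just outside the threshold in AcRA caps against C caps (log2 change 1.36 ± 0.38, adjusted p = 0.0534, or 0.00453 with experiment as a block). slc7a3, a transporter of arginine and lysine, had signals of 2467, 2578 and 2541 in caps labelled lhx1-AS/AcRA, 1059.6, 1633 and 1110.4 in AcRA caps, 1093, 1123 and 1612 in lhx1-AS caps and 823, 744 and 499.6 in C caps. Signals were higher in caps labelled lhx1-AS/AcRA than in AcRA caps (log2 change 1.02 ± 0.26, adjusted p = 0.0218) and than in lhx1-AS caps (log2 change 1.01 ± 0.26, adjusted p = 0.0242). Without a call, lhx1-AS caps also lay above C caps (log2 change 0.90 ± 0.26, adjusted p = 0.0515, or 0.0195 with experiment as a block). So did AcRA caps (log2 change 0.88 ± 0.26, adjusted p = 0.0647, or 0.029 with experiment as a block). slc7a3 lost its call against AcRA caps without AcRA array I or III or lhx1-AS/AcRA array I, II or III (adjusted p between 0.0518 and 0.0983). slc7a3 lost its call against lhx1-AS caps without lhx1-AS array I or II or lhx1-AS/AcRA array I, II or III (adjusted p between 0.0618 and 0.086).

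slc43a2, a facilitative carrier of neutral amino acids (LAT4), had signals of 433, 371 and 393 in caps labelled lhx1-AS/AcRA, 367, 240.5 and 130.4 in AcRA caps, 3.75, 25.2 and 58.6 in lhx1-AS caps and 94.8, 53.2 and 125 in C caps. Its call was in caps labelled lhx1-AS/AcRA against lhx1-AS caps (log2 change 4.49 ± 0.77, adjusted p = 0.00135), a comparison in which the lhx1-AS arrays themselves ranged widely. slc43a2 had a change against lhx1-AS caps of 3.37 without lhx1-AS array I and 5.36 without lhx1-AS array III, still called. slc43a2 averaged over its probe sets changed by 2.14 against lhx1-AS caps (adjusted p = 0.139). slc6a14.2, one of the frog genes related to the sodium- and chloride-coupled transporter of neutral and cationic amino acids SLC6A14, had signals of 1718, 920.5 and 694 in caps labelled lhx1-AS/AcRA, 105, 244 and 168 in AcRA caps, 47.3, 145 and 126 in lhx1-AS caps and 79, 151 and 50.3 in C caps. The lhx1-AS/AcRA arrays lay above all the other arrays, log2 change 2.66 ± 0.54, adjusted p = 0.00587 against AcRA caps and log2 change 3.43 ± 0.54, adjusted p = 0.000637 against lhx1-AS caps, while AcRA caps and C caps overlapped.

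slc38a2, the sodium-coupled transporter SNAT2 that loads cells with glutamine and alanine, was called unlike the other amino acid carriers and like slc30a1 below. It had signals of 5884, 3316 and 2839 in caps labelled lhx1-AS/AcRA, 859.9, 799 and 1267 in AcRA caps, 5689, 2585 and 3082 in lhx1-AS caps and 6011, 4473 and 1781 in C caps. The AcRA arrays were the lowest of all, below C caps (log2 change -1.93 ± 0.42, adjusted p = 0.0128), and caps labelled lhx1-AS/AcRA lay above AcRA caps (log2 change 2.00 ± 0.42, adjusted p = 0.00802) and overlapped lhx1-AS caps and C caps. slc38a2 lost its call in AcRA caps without C array I or II or AcRA array II (adjusted p between 0.0544 and 0.0713). The difference of its AcRA responses was 2.02 ± 0.60, adjusted p = 0.224.

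slc3a2, the heavy subunit (4F2hc) that carries the SLC7 light subunits to the cell surface, was lower in caps labelled lhx1-AS/AcRA. Its S copy had signals of 34.2, 31.9 and 77.9 in caps labelled lhx1-AS/AcRA, 801, 128 and 485 in AcRA caps, 612, 62.9 and 423 in lhx1-AS caps and 1618, 712 and 1712 in C caps. slc3a2 was lower in caps labelled lhx1-AS/AcRA than in AcRA caps (log2 change -3.06 ± 0.79, adjusted p = 0.0244), without overlap. slc3a2 lost its call against AcRA caps without AcRA array I or III or lhx1-AS/AcRA array I or II (adjusted p between 0.0735 and 0.119). slc3a2 had a change against AcRA caps of -3.83 without AcRA array II, still called. slc3a2 averaged over its probe sets changed by -0.85 against AcRA caps (adjusted p = 0.581). With experiment as a block it was lower in the other 3 comparisons too, with adjusted p = 0.0265 in AcRA caps against C caps, 0.00491 in lhx1-AS caps against C caps and 0.00214 in caps labelled lhx1-AS/AcRA against lhx1-AS caps. Its L copy was dim, with signals of 6.23, 6.85 and 11.2 in caps labelled lhx1-AS/AcRA, 3.21, 1.69 and 5.12 in AcRA caps, 2.48, 2.92 and 43.9 in lhx1-AS caps and 14.2, 3.32 and 5.91 in C caps, and was not called (log2 change 1.37 ± 1.22, adjusted p = 0.574). Among the members not called in any comparison were slc1a5, a neutral amino acid exchanger, with signals between 512 and 1095, and slc15a2, a proton-coupled peptide transporter. slc15a2 had signals of 116, 47.3 and 284 in caps labelled lhx1-AS/AcRA, 208, 345 and 694 in AcRA caps, 30.5, 41.8 and 18.7 in lhx1-AS caps and 89.8, 111 and 117 in C caps. AcRA caps and C caps did not overlap (log2 change 1.81 ± 0.61, adjusted p = 0.123), and neither did lhx1-AS caps and C caps (log2 change -1.87 ± 0.61, adjusted p = 0.083, or 0.0376 with experiment as a block).

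**Figure D3:**
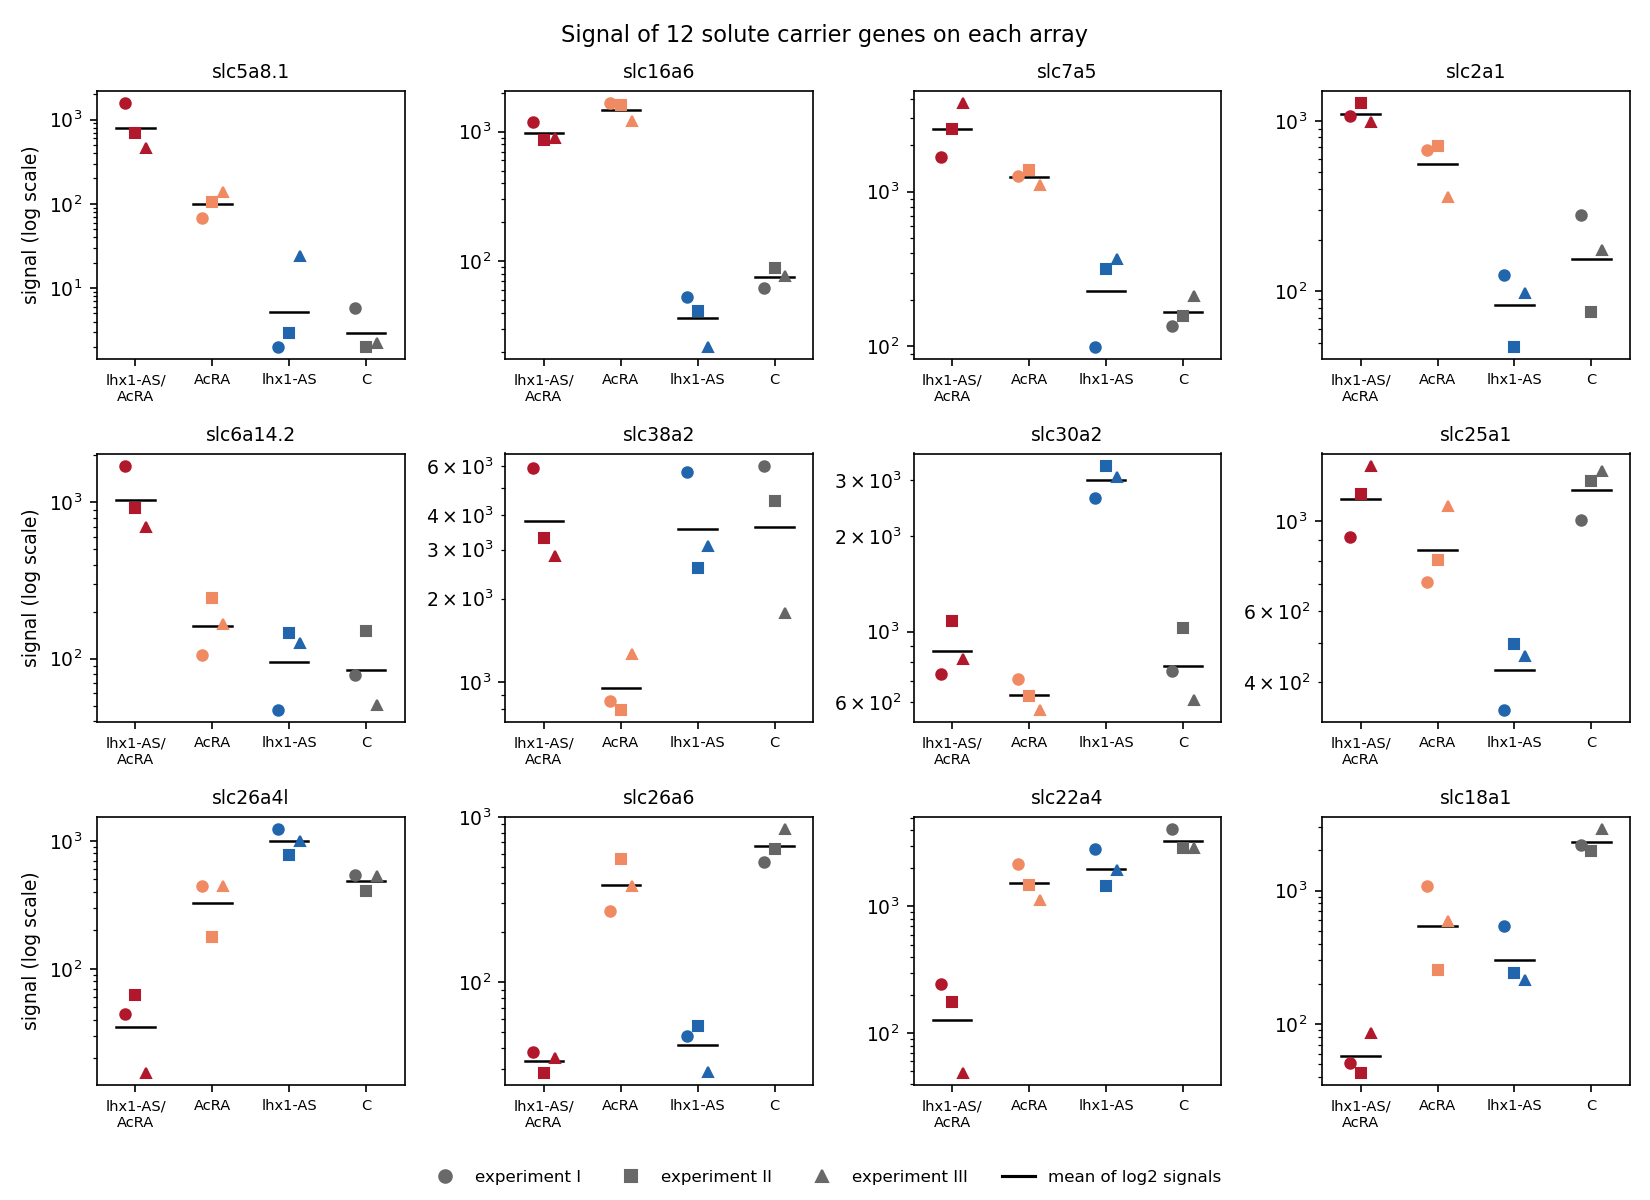
Signal on a log axis of 12 solute carrier genes on each array, by group (from left caps labelled lhx1-AS/AcRA, AcRA caps, lhx1-AS caps and C caps), with a marker shape for each experiment and a bar at the mean of the log2 signals of 3 arrays. slc16a6 separates both treated groups from both untreated ones, slc26a6 both injected groups from both uninjected ones, and slc38a2 and slc30a2 each set 1 group apart. For slc26a4l the lhx1-AS arrays lie above and the arrays labelled lhx1-AS/AcRA below all other arrays.

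4 carriers of monocarboxylates and glucose, pooled here from 3 classes, were among the 6 called higher in AcRA caps than in C caps. They were 2 of 3 carriers of monocarboxylates, 1 of 3 of sodium-coupled solutes and 1 of 13 of sugars, beside 3.09% of all probe sets. The largest called increases there were those of slc5a8.1 and slc16a6, but with 64 added to the signals slc5a8.1 fell below slc16a6 and slc7a5. slc5a8.1, related to the sodium-coupled transporter of lactate, pyruvate and short-chain fatty acids, had signals of 1586, 698 and 458 in caps labelled lhx1-AS/AcRA, 67.5, 104 and 140.1 in AcRA caps, 2.02, 2.95 and 24 in lhx1-AS caps and 5.76, 2.03 and 2.2 in C caps. All treated arrays lay above all untreated ones, and the arrays labelled lhx1-AS/AcRA above the AcRA arrays. The change was called in AcRA caps against C caps (log2 change 5.07 ± 0.87, adjusted p = 0.00212), in caps labelled lhx1-AS/AcRA against lhx1-AS caps (log2 change 7.25 ± 0.87, adjusted p = 7.26e-05). It was also called in caps labelled lhx1-AS/AcRA against AcRA caps (8.02-fold, with a standard error of 0.87 on the log2 scale, adjusted p = 0.0433). The untreated arrays were near the floor of 1, so that the size of its increase in AcRA caps depended on the scale. It lay between 1.30 with 64 added and 5.56 over the alternatives, where the lowest value of slc16a6 was 3.47 and that of slc7a5 2.51. Against lhx1-AS caps the change of slc5a8.1 lay between 3.57 and 8.35 over the alternatives. slc5a8.1 lost its call against AcRA caps without AcRA array I, II or III or lhx1-AS/AcRA array I, II or III (adjusted p between 0.0652 and 0.169). slc5a8.1 had a change against lhx1-AS caps of 6.57 without lhx1-AS array I and 8.35 without lhx1-AS array III, still called.

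slc16a6, a monocarboxylate transporter that exports ketone bodies from the liver in zebrafish, had signals of 1183, 864 and 901 in caps labelled lhx1-AS/AcRA, 1675, 1606 and 1203 in AcRA caps, 52.9, 41.1 and 21.8 in lhx1-AS caps and 62.1, 89 and 76.9 in C caps. It was higher in AcRA caps than in C caps (log2 change 4.30 ± 0.36, adjusted p = 9.13e-06) and in caps labelled lhx1-AS/AcRA than in lhx1-AS caps (log2 change 4.75 ± 0.36, adjusted p = 1.11e-06). The arrays labelled lhx1-AS/AcRA lay below the AcRA arrays without a call (log2 change -0.60 ± 0.36, adjusted p = 0.353). slc16a1, the proton-coupled lactate and pyruvate carrier MCT1, had signals of 774, 1138 and 834 in caps labelled lhx1-AS/AcRA, 1182, 1447 and 1748 in AcRA caps, 657, 589 and 563 in lhx1-AS caps and 539, 669 and 382 in C caps. It was higher in AcRA caps than in C caps (log2 change 1.48 ± 0.27, adjusted p = 0.00306), and its other probe set changed by 1.07 ± 0.31, adjusted p = 0.06, or 0.0233 with experiment as a block. slc16a3, the lactate exporter MCT4, was called in no comparison, with signals of 1523, 2128 and 966 in AcRA caps and 1457, 1375 and 853 in C caps.

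slc2a1, the glucose transporter GLUT1, had signals of 1070.0, 1276 and 980.1 in caps labelled lhx1-AS/AcRA, 672, 709 and 357 in AcRA caps, 125, 47.4 and 97.1 in lhx1-AS caps and 280.2, 75.5 and 175 in C caps. Treated and untreated arrays did not overlap, in AcRA caps against C caps (log2 change 1.84 ± 0.48, adjusted p = 0.035) or in caps labelled lhx1-AS/AcRA against lhx1-AS caps (log2 change 3.73 ± 0.48, adjusted p = 0.000129). slc2a1 lost its call in AcRA caps without C array II or III or AcRA array I or II (adjusted p between 0.0801 and 0.146). slc2a1 averaged over its probe sets changed by 1.02 in AcRA caps (adjusted p = 0.199). A second slc2a1 probe set was not called in either (log2 change 0.20 ± 0.73, adjusted p = 0.976 in AcRA caps against C caps). slc2a2, the GLUT2 transporter of liver and proximal tubule, was not called, with signals of 3618, 1354 and 1245 in caps labelled lhx1-AS/AcRA, 1998, 1796 and 1400.4 in AcRA caps, 1296, 737 and 904 in lhx1-AS caps and 2075, 1405 and 1268 in C caps. With experiment as a block slc2a2 was higher in caps labelled lhx1-AS/AcRA than in lhx1-AS caps (adjusted p = 0.0131) and lower in lhx1-AS caps than in C caps (adjusted p = 0.0488). slc13a3, a sodium-coupled transporter of dicarboxylates in the proximal tubule, had signals of 499, 87.2 and 169.7 in caps labelled lhx1-AS/AcRA, 41, 41.8 and 110.1 in AcRA caps, 32.4, 48.6 and 28.2 in lhx1-AS caps and 23, 35.2 and 19.5 in C caps. It was higher in caps labelled lhx1-AS/AcRA than in lhx1-AS caps (log2 change 2.46 ± 0.65, adjusted p = 0.0285). slc13a3 lost its call against lhx1-AS caps without lhx1-AS array I or III or lhx1-AS/AcRA array I or III (adjusted p between 0.0627 and 0.159).

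3 of the 4 genes of the SLC37 family of glucose 6-phosphate and phosphate exchangers were lower in injected than in uninjected caps, 1 of them in both treated and untreated caps. Thus 2 of the 4 were lower in treated caps, beside 6.94% of all probe sets, and 2 in untreated caps, beside 4.47%. slc37a1 had signals of 15.6, 55.6 and 38 in caps labelled lhx1-AS/AcRA, 482, 136 and 186 in AcRA caps, 316, 132 and 169 in lhx1-AS caps and 859, 484 and 1193 in C caps. It was lower in caps labelled lhx1-AS/AcRA than in AcRA caps (log2 change -2.85 ± 0.57, adjusted p = 0.00591) and in lhx1-AS caps than in C caps (log2 change -2.05 ± 0.57, adjusted p = 0.0451), with no overlap in either. slc37a1 lost its call in lhx1-AS caps without C array I or III, AcRA array III, lhx1-AS array II or III or lhx1-AS/AcRA array III (adjusted p between 0.0519 and 0.172) and with quantile normalization (adjusted p = 0.0556) and with a common median (adjusted p = 0.0624). slc37a1 was lower also in caps labelled lhx1-AS/AcRA than in lhx1-AS caps (log2 change -2.58 ± 0.57, adjusted p = 0.00965). slc37a1 lost its call against lhx1-AS caps without lhx1-AS array I (adjusted p = 0.0518). slc37a2 had signals of 598, 236 and 220.3 in caps labelled lhx1-AS/AcRA, 667, 547 and 518 in AcRA caps, 119, 228 and 143 in lhx1-AS caps and 732, 739.6 and 382 in C caps, lower in lhx1-AS caps than in C caps (log2 change -1.91 ± 0.41, adjusted p = 0.0141). slc37a2 lost its call in lhx1-AS caps without C array I or lhx1-AS array III (adjusted p between 0.0526 and 0.0625). slc37a4, the glucose 6-phosphate translocase, was lower in caps labelled lhx1-AS/AcRA than in AcRA caps, with signals of 60.4, 50.1 and 26.2 in caps labelled lhx1-AS/AcRA and 492, 93.4 and 164 in AcRA caps (log2 change -2.19 ± 0.63, adjusted p = 0.0405). slc37a4 lost its call against AcRA caps without C array I, AcRA array I or III or lhx1-AS/AcRA array I, II or III (adjusted p between 0.0541 and 0.211) and with quantile normalization (adjusted p = 0.0627) and with a common median (adjusted p = 0.0607). slc37a3 was not called in any comparison, with signals between 311 and 1242.

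Of the 4 anion and bicarbonate carriers measured, 3 were lower in caps labelled lhx1-AS/AcRA than in AcRA caps, 2 of them also in lhx1-AS caps than in C caps, and the other was higher in caps labelled lhx1-AS/AcRA than in lhx1-AS caps. Of all probe sets, 6.94% were lower in caps labelled lhx1-AS/AcRA than in AcRA caps and 4.47% in lhx1-AS caps than in C caps. In caps labelled lhx1-AS/AcRA against lhx1-AS caps 4.0% were higher. slc26a6, an exchanger of chloride for oxalate, formate and bicarbonate in the apical membrane of tubule cells, had signals of 37.6, 28.4 and 34.6 in caps labelled lhx1-AS/AcRA, 269, 559 and 382 in AcRA caps, 47.2, 54.7 and 28.6 in lhx1-AS caps and 536, 642 and 848 in C caps. Every injected array lay below every uninjected one, in treated caps (log2 change -3.54 ± 0.40, adjusted p = 0.000119) and in untreated caps (log2 change -3.98 ± 0.40, adjusted p = 0.000128), with a difference between the effects of 0.45 ± 0.56. slc4a11, a proton-permeable SLC4 member of the corneal endothelium and kidney, had signals of 1135, 2126 and 711 in caps labelled lhx1-AS/AcRA, 2597, 2793 and 2807 in AcRA caps, 1426, 1906 and 963 in lhx1-AS caps and 4536, 3364 and 4454 in C caps. It was lower in lhx1-AS caps than in C caps (log2 change -1.57 ± 0.34, adjusted p = 0.0143) and in caps labelled lhx1-AS/AcRA than in AcRA caps (log2 change -1.19 ± 0.34, adjusted p = 0.0403). slc4a11 lost its call in lhx1-AS caps without C array I or III or lhx1-AS array III (adjusted p between 0.0591 and 0.0677). slc4a11 lost its call against AcRA caps without C array I or III, AcRA array I, II or III or lhx1-AS/AcRA array I or III (adjusted p between 0.0532 and 0.175) and with a common median (adjusted p = 0.121).

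slc26a4l, a gene named for its likeness to the chloride and bicarbonate exchanger pendrin, had signals of 44.5, 62.6 and 15.5 in caps labelled lhx1-AS/AcRA, 444, 178 and 447 in AcRA caps, 1243, 777 and 1002 in lhx1-AS caps and 544, 408 and 528 in C caps. The lhx1-AS arrays were the highest of all and the arrays labelled lhx1-AS/AcRA the lowest. slc26a4l was lower in caps labelled lhx1-AS/AcRA than in AcRA caps (log2 change -3.23 ± 0.49, adjusted p = 0.00088) and than in lhx1-AS caps (log2 change -4.82 ± 0.49, adjusted p = 1.86e-05), whereas lhx1-AS caps lay above C caps without a call (log2 change 1.02 ± 0.49, adjusted p = 0.241). Its AcRA response in injected caps differed from that in uninjected caps by -4.24 ± 0.69, adjusted p = 0.0128. slc26a4l lost its call of the difference without AcRA array III (adjusted p = 0.0512). Without lhx1-AS/AcRA array III the difference was -3.65, and the changes of slc26a4l were -2.64 against AcRA caps and -4.23 against lhx1-AS caps, all still called. The marker genes of ionocytes were called with slc26a4l in some comparisons and not in others. Of 6 measured, 4 were lower in caps labelled lhx1-AS/AcRA than in AcRA caps and 5 lower than in lhx1-AS caps, 0 of the 6 were called in lhx1-AS caps against C caps. Their summed signal was 155 to 243 in caps labelled lhx1-AS/AcRA, 1878 to 3010.0 in AcRA caps, 1589 to 2545 in lhx1-AS caps and 3957 to 6806 in C caps. atp6v1b1, a subunit of the ionocyte proton pump, had signals of 7.08, 37.2 and 1.74 in caps labelled lhx1-AS/AcRA and 1224, 1670.3 and 2372 in AcRA caps. foxi1, which specifies ionocytes, had signals of 22.8, 1.25 and 7.95 in caps labelled lhx1-AS/AcRA and 239, 151 and 222 in lhx1-AS caps. In AcRA caps against C caps, where slc26a4l was not called, 2 of the 6 were lower (median log2 change -2.05). For the difference of AcRA responses, where slc26a4l was called, 0 of the 6 were called, with a median difference of -1.90. That test called 0.168% of all probe sets with a positive and 0.271% with a negative difference. None of the 6 was listed at 0 on any array. The part of these markers in the slc26a4l result was not tested.

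slc4a1, the chloride and bicarbonate exchanger of red cells and acid-secreting tubule cells, ran the other way, with signals of 652, 283 and 377 in caps labelled lhx1-AS/AcRA, 187, 165 and 194 in AcRA caps, 43.7, 55 and 11.5 in lhx1-AS caps and 48.1, 7.8 and 78.3 in C caps. It was higher in caps labelled lhx1-AS/AcRA than in lhx1-AS caps (log2 change 3.76 ± 0.77, adjusted p = 0.0051), and AcRA caps lay above C caps (log2 change 2.56 ± 0.77, adjusted p = 0.0725, or 0.0398 with experiment as a block). slc4a1 had a change against lhx1-AS caps of 3.07 without lhx1-AS array III, still called. Of 3 blood markers measured 0 were called in these comparisons, and they summed to 24.2 to 174 in caps labelled lhx1-AS/AcRA and 75.7 to 112 in lhx1-AS caps. Carbonic anhydrases supply these exchangers with bicarbonate and are among the ionocyte markers counted above. ca12 and ca2 were lower in caps labelled lhx1-AS/AcRA than in AcRA caps and than in lhx1-AS caps, as slc26a4l was. ca12 was lower also in AcRA caps than in C caps, where slc26a4l was not called. In lhx1-AS caps against C caps ca12 lay lower without a call, whereas slc26a4l lay higher without a call. ca12 had signals of 15.5, 90.5 and 72.7 in caps labelled lhx1-AS/AcRA, 249, 297 and 249.9 in AcRA caps, 766, 919 and 487 in lhx1-AS caps and 2223, 1975 and 1218 in C caps. This gene was lower in caps labelled lhx1-AS/AcRA than in AcRA caps (log2 change -2.50 ± 0.53, adjusted p = 0.00794). ca2 changed by -2.90 ± 0.65, adjusted p = 0.0108 in the same comparison.

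slc22a5 (carnitine), slc19a3 (thiamine), slc44a1 (choline) and slc18a1 (monoamines) were each called lower after injection in both treated and untreated caps. These 4 genes were picked across 4 classes for their calls. Of 4 carriers of organic ions 2 were lower in treated and 1 in untreated caps, and of 5 of nucleosides and vitamins 1 and 1. Of 4 carriers of lipids and bile acids 3 and 2 were lower, and of 5 vesicular carriers 2 and 1. Of all probe sets 6.94% and 4.47% were lower. slc22a5, the carnitine transporter OCTN2, had signals of 154, 239 and 231 in caps labelled lhx1-AS/AcRA, 1400.0, 1070.1 and 849 in AcRA caps, 1800.0, 886 and 1693 in lhx1-AS caps and 4076, 3044 and 3051 in C caps. slc22a5 was lower in caps labelled lhx1-AS/AcRA than in AcRA caps (log2 change -2.41 ± 0.31, adjusted p = 0.000271) and than in lhx1-AS caps (log2 change -2.77 ± 0.31, adjusted p = 3.97e-05). Against C caps it was lower in AcRA caps (log2 change -1.63 ± 0.31, adjusted p = 0.0044) and in lhx1-AS caps (log2 change -1.27 ± 0.31, adjusted p = 0.0239). slc22a5 lost its call in lhx1-AS caps without C array I or III or lhx1-AS array II (adjusted p between 0.0661 and 0.105) and with a common median (adjusted p = 0.0612). A second slc22a5 probe set was also called lower in all 4 comparisons, with changes between -2.61 and -1.60. slc22a4, the related OCTN1, a transporter of ergothioneine, had signals of 243, 177 and 48.9 in caps labelled lhx1-AS/AcRA, 2157, 1474 and 1117 in AcRA caps, 2814, 1449.5 and 1931 in lhx1-AS caps and 4104, 2915 and 2898 in C caps. The arrays labelled lhx1-AS/AcRA lay far below the rest, log2 change -3.57 ± 0.48, adjusted p = 0.000365 against AcRA caps and log2 change -3.96 ± 0.48, adjusted p = 7.22e-05 against lhx1-AS caps. Without lhx1-AS/AcRA array III its changes were -2.88 against AcRA caps and -3.26 against lhx1-AS caps, both still called. The difference between its AcRA responses was -2.86 ± 0.67, adjusted p = 0.0964, or 0.00912 with experiment as a block. slc22a8 and slc22a15.2, the other SLC22 members, were not called.

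slc19a3, a thiamine transporter, had signals of 13.4, 18.2 and 69.1 in caps labelled lhx1-AS/AcRA, 669, 147 and 359.6 in AcRA caps, 331, 115 and 189.6 in lhx1-AS caps and 1426, 874 and 1539.7 in C caps. slc19a3 was lower in caps labelled lhx1-AS/AcRA than in AcRA caps (log2 change -3.68 ± 0.64, adjusted p = 0.00224) and in lhx1-AS caps than in C caps (log2 change -2.68 ± 0.64, adjusted p = 0.022), with no overlap of groups. Signals were lower too in caps labelled lhx1-AS/AcRA against lhx1-AS caps (log2 change -2.91 ± 0.64, adjusted p = 0.00881). slc19a3 lost its call in lhx1-AS caps without C array I or III or lhx1-AS array II or III (adjusted p between 0.0684 and 0.0907). Without lhx1-AS/AcRA array III its changes were -4.39 against AcRA caps and -3.63 against lhx1-AS caps, both still called. slc44a1, the choline transporter CTL1, had signals of 35.6, 68 and 65.7 in caps labelled lhx1-AS/AcRA, 391, 391 and 379 in AcRA caps, 114, 92.8 and 182 in lhx1-AS caps and 699.9, 809.6 and 1001 in C caps. Each injected group lay below its uninjected counterpart, log2 change -2.84 ± 0.36, adjusted p = 0.000245 in treated caps and log2 change -2.73 ± 0.36, adjusted p = 0.000812 in untreated caps. slc10a7, a member of the bile acid cotransporter family with no bile acid transport known, had signals of 68.3, 74.4 and 83.5 in caps labelled lhx1-AS/AcRA, 521, 302 and 586 in AcRA caps, 64.4, 35.2 and 104 in lhx1-AS caps and 653, 475 and 1257 in C caps. All injected arrays lay below all uninjected arrays, log2 change -2.59 ± 0.46, adjusted p = 0.00253 in treated and log2 change -3.56 ± 0.46, adjusted p = 0.000746 in untreated caps. slc27a2, a fatty acid transport protein and very-long-chain acyl-CoA synthetase, had signals of 99.2, 115 and 39.5 in caps labelled lhx1-AS/AcRA and 1251, 475 and 499.6 in AcRA caps and was lower in caps labelled lhx1-AS/AcRA (log2 change -3.12 ± 0.67, adjusted p = 0.00863). slc27a2 lost its call against AcRA caps without AcRA array I (adjusted p = 0.051). slc27a6, of the same family, was not called, and in lhx1-AS caps it lay below C caps (log2 change -0.91 ± 0.27, adjusted p = 0.0586, or 0.00666 with experiment as a block).

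slc18a1, a vesicular monoamine transporter (VMAT1), had signals of 50.8, 43.3 and 84.9 in caps labelled lhx1-AS/AcRA, 1076, 255 and 594 in AcRA caps, 543, 241 and 215 in lhx1-AS caps and 2176, 1966 and 2905 in C caps. It was called lower in each of the 4 comparisons, log2 change -3.26 ± 0.49, adjusted p = 0.000818 in caps labelled lhx1-AS/AcRA against AcRA caps, log2 change -2.93 ± 0.49, adjusted p = 0.0034 in lhx1-AS caps against C caps. The AcRA responses were log2 change -2.41 ± 0.49, adjusted p = 0.00483 in caps labelled lhx1-AS/AcRA against lhx1-AS caps and log2 change -2.08 ± 0.49, adjusted p = 0.0187 in AcRA caps against C caps. slc18a1 lost its call in AcRA caps without C array I or III or AcRA array II or III (adjusted p between 0.0559 and 0.0937). slc18a2, which encodes the related VMAT2 of neurons, had signals of at most 20.4 on any array. slc17a9, the vesicular nucleotide transporter that loads ATP, had signals of 96.1, 182 and 110.5 in caps labelled lhx1-AS/AcRA, 408, 377 and 245 in AcRA caps, 493, 335 and 229.8 in lhx1-AS caps and 664, 781 and 410.4 in C caps. slc17a9 was lower in caps labelled lhx1-AS/AcRA than in AcRA caps (log2 change -1.43 ± 0.38, adjusted p = 0.0297) and than in lhx1-AS caps (log2 change -1.43 ± 0.38, adjusted p = 0.0317). slc17a9 lost its call against AcRA caps without AcRA array I or II or lhx1-AS/AcRA array I or III (adjusted p between 0.0881 and 0.12) and with quantile normalization (adjusted p = 0.0665) and with a common median (adjusted p = 0.0929). slc17a9 lost its call against lhx1-AS caps without lhx1-AS array I or II or lhx1-AS/AcRA array I or III (adjusted p between 0.0738 and 0.132) and with a common median (adjusted p = 0.0527). slc17a5, the lysosomal sialic acid exporter, was not called, with log2 change 1.35 ± 0.48, adjusted p = 0.12, or 0.0331 with experiment as a block in caps labelled lhx1-AS/AcRA against lhx1-AS caps. slc35a3.2, related to the Golgi transporter of UDP-N-acetylglucosamine SLC35A3, had signals of 731, 1277 and 429 in caps labelled lhx1-AS/AcRA, 9846, 3524 and 5857 in AcRA caps, 7442, 6843 and 10027 in lhx1-AS caps and 13242, 10460.0 and 15473 in C caps. slc35a3.2 was lower in caps labelled lhx1-AS/AcRA than in AcRA caps (7.97-fold, with a standard error of 0.38 on the log2 scale, adjusted p = 0.000271) and than in lhx1-AS caps (log2 change -3.44 ± 0.38, adjusted p = 4.1e-05). Among the other 8 SLC35 genes, without the block only slc35d1, a carrier of UDP-glucuronic acid and UDP-N-acetylgalactosamine, was called, lower in caps labelled lhx1-AS/AcRA than in AcRA caps. It had signals of 818, 1426 and 981 in caps labelled lhx1-AS/AcRA and 2706, 2422 and 2184 in AcRA caps (log2 change -1.22 ± 0.26, adjusted p = 0.00882). slc35f2 ran the other way and was just outside the threshold, with signals of 124, 143 and 160.4 in caps labelled lhx1-AS/AcRA and 23, 30.5 and 61.7 in AcRA caps (log2 change 2.01 ± 0.62, adjusted p = 0.0546, or 0.00646 with experiment as a block). Of 6 epidermal markers measured, 3 were lower and 1 higher in caps labelled lhx1-AS/AcRA than in AcRA caps. Their summed signal was 2684 to 6831 in caps labelled lhx1-AS/AcRA, 17578 to 27452 in AcRA caps, 25942 to 29740 in lhx1-AS caps and 35836 to 48150 in C caps. 5 of the 6 were lower in caps labelled lhx1-AS/AcRA than in lhx1-AS caps, 2 in AcRA caps than in C caps, and 0 were called in lhx1-AS caps against C caps. Of 3 multiciliated cell markers measured, 2 were lower in lhx1-AS caps than in C caps (median log2 change -1.74), 3 in AcRA caps than in C caps, 2 in caps labelled lhx1-AS/AcRA than in lhx1-AS caps and 1 in caps labelled lhx1-AS/AcRA than in AcRA caps. They summed to 53 to 113 in caps labelled lhx1-AS/AcRA, 147 to 279 in AcRA caps, 485 to 1531 in lhx1-AS caps and 1799 to 3383 in C caps. The part of RNA of these cells in the lower carrier signals was not tested.

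The 19 SLC25 genes belong to the family of mitochondrial carriers, and 1 of them encodes a peroxisomal carrier (slc25a17). Without the block, 6 of them were called in at least 1 comparison and 13 in none, beside 39 and 64 of all 103 carriers. Higher and lower were 1 and 0 in AcRA caps against C caps, beside 3.09% and 2.62% of all probe sets. They were 1 and 2 in caps labelled lhx1-AS/AcRA against AcRA caps, beside 2.7% and 6.94%. These counts were 1 and 3 in lhx1-AS caps against C caps, beside 2.52% and 4.47%. Against lhx1-AS caps, those labelled lhx1-AS/AcRA had 1 and 1, beside 4.0% and 4.09%. The median change of the 19 lay between -0.20 and 0.15 in the 4 comparisons. slc25a1, the citrate carrier that feeds fatty acid synthesis, had signals of 914, 1170.4 and 1374 in caps labelled lhx1-AS/AcRA, 707, 802 and 1090.1 in AcRA caps, 343, 498 and 466 in lhx1-AS caps and 1011, 1262 and 1334 in C caps. lhx1-AS caps were lowest, below C caps (log2 change -1.47 ± 0.26, adjusted p = 0.00477) and below caps labelled lhx1-AS/AcRA (log2 change 1.40 ± 0.26, adjusted p = 0.00262), whereas AcRA caps overlapped C caps (log2 change -0.49 ± 0.26, adjusted p = 0.434). The AcRA response of injected caps exceeded that of uninjected caps by 1.89 ± 0.37, adjusted p = 0.0418. That call was lost when any array but lhx1-AS/AcRA array I was left out (adjusted p between 0.0532 and 0.123) and with quantile normalization (adjusted p = 0.0732). slc25a13, the aspartate and glutamate carrier citrin, had signals of 674, 1439 and 507 in caps labelled lhx1-AS/AcRA, 2512, 3150.2 and 2673 in AcRA caps, 1548, 1319.6 and 875 in lhx1-AS caps and 3171, 3605 and 3639 in C caps. slc25a13 was lower in caps labelled lhx1-AS/AcRA than in AcRA caps (log2 change -1.81 ± 0.33, adjusted p = 0.00296) and in lhx1-AS caps than in C caps (log2 change -1.51 ± 0.33, adjusted p = 0.0142). slc25a13 lost its call in lhx1-AS caps without C array III or lhx1-AS array III (adjusted p between 0.0585 and 0.067).

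slc25a24, a carrier of ATP-magnesium and phosphate, was lower in lhx1-AS caps, with signals of 261, 178 and 329 in lhx1-AS caps and 623, 547 and 1497 in C caps (log2 change -1.69 ± 0.41, adjusted p = 0.0238). slc25a24 lost its call in lhx1-AS caps without C array III or lhx1-AS array II (adjusted p between 0.0895 and 0.109). slc25a24 averaged over its probe sets changed by -1.02 in lhx1-AS caps (adjusted p = 0.0605). slc25a22l, named for its likeness to a mitochondrial glutamate carrier, had signals of 31.5, 32.7 and 5.4 in caps labelled lhx1-AS/AcRA, 174, 54.5 and 105 in AcRA caps, 563, 199.9 and 229.8 in lhx1-AS caps and 739, 436 and 331 in C caps. slc25a22l was lower in caps labelled lhx1-AS/AcRA than in lhx1-AS caps (log2 change -4.06 ± 0.68, adjusted p = 0.00121) and than in AcRA caps (log2 change -2.50 ± 0.68, adjusted p = 0.033). slc25a22l had a change against lhx1-AS caps of -3.20 without lhx1-AS/AcRA array III, still called. slc25a22l lost its call against AcRA caps without AcRA array I or III or lhx1-AS/AcRA array III (adjusted p between 0.0927 and 0.144), with quantile normalization (adjusted p = 0.0753) and with a common median (adjusted p = 0.0622). With 64 added to the signals its change was -0.97 (adjusted p = 0.116). slc25a28, the iron carrier mitoferrin 2, was higher after injection, with signals of 2324, 2408 and 3189 in caps labelled lhx1-AS/AcRA, 751, 1459 and 903 in AcRA caps, 2862, 3151 and 2502 in lhx1-AS caps and 1175, 1796 and 1242 in C caps. Its brightest probe set, of the L copy, was called in caps labelled lhx1-AS/AcRA against AcRA caps (log2 change 1.39 ± 0.27, adjusted p = 0.00422) and in lhx1-AS caps against C caps (log2 change 1.04 ± 0.27, adjusted p = 0.0313). slc25a28 lost its call in lhx1-AS caps without C array I or III or lhx1-AS array I, II or III (adjusted p between 0.0543 and 0.122). slc25a28 averaged over its probe sets changed by 0.30 in lhx1-AS caps (adjusted p = 0.786). Its other probe sets, 1 of each copy, changed by -0.02 and -0.04 in caps labelled lhx1-AS/AcRA against AcRA caps. slc25a28 averaged over its probe sets changed by 0.45 against AcRA caps (adjusted p = 0.66). The peroxisomal carrier slc25a17 was higher in AcRA caps than in C caps, with signals of 1043, 2088 and 1301 in AcRA caps and 622, 662 and 452 in C caps (log2 change 1.31 ± 0.29, adjusted p = 0.0144), on the L probe set. Its S probe set changed by -0.45 ± 0.24, adjusted p = 0.435. slc25a17 lost its call in AcRA caps without C array III or AcRA array II (adjusted p between 0.0738 and 0.0851). slc25a17 averaged over its probe sets changed by 0.43 in AcRA caps (adjusted p = 0.363). The brightest carriers of the family, slc25a3 for phosphate and slc25a25 for ATP-magnesium and phosphate, were not called without the block, and slc25a25 was higher in AcRA caps than in C caps with it (adjusted p = 0.037). The brighter slc25a3 probe set changed by at most 0.23 on the log2 scale in the 4 comparisons, with a standard error of 0.18. The other slc25a3 probe set changed by -0.88 ± 0.33, adjusted p = 0.122 in caps labelled lhx1-AS/AcRA against AcRA caps and by -0.76 ± 0.33, adjusted p = 0.19 in lhx1-AS caps against C caps.

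Among the 11 carriers of metals and heme, 3 were called without the block, 2 of them zinc transporters of the SLC30 family. Of all 103 carriers 39 were called without it. Higher and lower were 0 and 1 of the 11 in AcRA caps against C caps, beside 3.09% and 2.62% of all probe sets. They were 1 and 0 in caps labelled lhx1-AS/AcRA against AcRA caps, beside 2.7% and 6.94%. These counts were 1 and 0 in lhx1-AS caps against C caps, beside 2.52% and 4.47%. Against lhx1-AS caps, those labelled lhx1-AS/AcRA had 0 and 2, beside 4.0% and 4.09%. slc30a2, the zinc transporter ZnT2 of vesicles, had signals of 735, 1080.0 and 820.2 in caps labelled lhx1-AS/AcRA, 709, 626 and 567 in AcRA caps, 2642, 3339.5 and 3087 in lhx1-AS caps and 749, 1025 and 609 in C caps. The lhx1-AS arrays were the highest, above C caps (log2 change 1.95 ± 0.25, adjusted p = 0.000744), and caps labelled lhx1-AS/AcRA lay below lhx1-AS caps (log2 change -1.80 ± 0.25, adjusted p = 0.000235). The difference between the AcRA responses was -1.50 ± 0.35, adjusted p = 0.0959, or 0.0162 with experiment as a block. slc30a1, which exports zinc at the plasma membrane, had signals of 4701, 3748 and 2720.0 in caps labelled lhx1-AS/AcRA, 2709.9, 1823 and 1509 in AcRA caps, 5139.7, 4868 and 4778 in lhx1-AS caps and 5445, 3245 and 3769.6 in C caps. The AcRA arrays were the lowest. It was lower in AcRA caps than in C caps (log2 change -1.05 ± 0.27, adjusted p = 0.0295) and higher in caps labelled lhx1-AS/AcRA than in AcRA caps (log2 change 0.89 ± 0.27, adjusted p = 0.0484). slc30a1 lost its call in AcRA caps without C array I or III or AcRA array II or III (adjusted p between 0.0685 and 0.152) and with a common median (adjusted p = 0.0517). slc30a1 lost its call against AcRA caps without C array II or III, AcRA array II or III, lhx1-AS array I, II or III or lhx1-AS/AcRA array I or II (adjusted p between 0.0504 and 0.188) and with quantile normalization (adjusted p = 0.0656). slc49a3 was lower in caps labelled lhx1-AS/AcRA than in lhx1-AS caps, with signals of 112, 57 and 46.9 in caps labelled lhx1-AS/AcRA and 289, 169 and 190.2 in lhx1-AS caps (log2 change -1.65 ± 0.43, adjusted p = 0.0269). slc49a3 lost its call against lhx1-AS caps without lhx1-AS array I or III or lhx1-AS/AcRA array II or III (adjusted p between 0.0556 and 0.109). slc39a7, a zinc channel of the endoplasmic reticulum, and slc31a2, of the copper transporter family, were not called. With experiment as a block slc31a2 was higher in caps labelled lhx1-AS/AcRA than in AcRA caps (adjusted p = 0.0385) and in lhx1-AS caps than in C caps (adjusted p = 0.0197). slc39a7 changed by -0.02 ± 0.18 in AcRA caps against C caps and by -0.32 ± 0.18 in caps labelled lhx1-AS/AcRA against AcRA caps. A dimmer slc39a7 probe set changed by -1.48 ± 0.40, adjusted p = 0.0303 in caps labelled lhx1-AS/AcRA against AcRA caps.

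Of 61 carrier genes listed for their known use in the kidney tubule, 21 were measured. The list was chosen with earlier results of these data known. In AcRA caps against C caps 3 were higher and 1 lower, beside 3.09% and 2.62% of all probe sets. In caps labelled lhx1-AS/AcRA against AcRA caps 2 were higher and 4 lower, beside 2.7% and 6.94%. In lhx1-AS caps against C caps 0 were higher and 3 lower, beside 2.52% and 4.47%. The treatment comparison of injected caps, lhx1-AS/AcRA against lhx1-AS, had 8 higher and 1 lower, beside 4.0% and 4.09%. The median change was 0.89 there, where that of all 103 carriers was -0.17. The 8 were slc2a1, slc4a1, slc5a8.1, slc6a14.2, slc7a7, slc7a8, slc13a3 and slc16a6, and the 1 was slc22a5. The block brought these counts to 6 and 2 in AcRA caps against C caps, beside 5.29% and 5.14% of all probe sets. In caps labelled lhx1-AS/AcRA against AcRA caps the block left them at 2 and 4, beside 6.98% and 11.9%. In lhx1-AS caps against C caps it brought them to 0 and 8, beside 7.41% and 10.4%. Of those 8 lower, slc26a6, slc4a11 and slc22a5 were also called without the block. The block gave 10 and 2 in caps labelled lhx1-AS/AcRA against lhx1-AS caps, beside 6.34% and 6.64%. Quantile normalization and a common median left 8 higher and 1 lower. Several tubule genes were dim on all arrays. slc13a2, a transporter of citrate and other carboxylates, slc22a8, an organic anion transporter, and slc5a11, a sodium and inositol cotransporter, had signals no higher than 24.7, 35.6 and 33.6 on any array. slc20a1, a phosphate transporter, slc6a13, a transporter of GABA and taurine, and slc7a9, the cystine transporter light subunit, were measured above those levels and not called. slc6a13 changed by 1.17 ± 0.64, adjusted p = 0.451 in AcRA caps against C caps. Of 5 early kidney markers measured, 1 was higher in AcRA caps than in C caps, 1 in caps labelled lhx1-AS/AcRA than in AcRA caps and 2 in caps labelled lhx1-AS/AcRA than in lhx1-AS caps. lhx1, the target of the oligonucleotide, is among the 5. The summed signal of the 5 was 1729 to 2455 in caps labelled lhx1-AS/AcRA, 573 to 1186 in AcRA caps, 107 to 168 in lhx1-AS caps and 96.3 to 148 in C caps. lhx1 alone had signals of 1144, 991 and 1614 in caps labelled lhx1-AS/AcRA and 316, 823 and 779 in AcRA caps. The median log2 change of the 5 was 1.83 in AcRA caps against C caps. In caps labelled lhx1-AS/AcRA it was -0.27 against AcRA caps and 1.15 against lhx1-AS caps. Of 5 endoderm markers measured, 3 were higher in AcRA caps than in C caps, 2 in caps labelled lhx1-AS/AcRA than in AcRA caps and 4 in caps labelled lhx1-AS/AcRA than in lhx1-AS caps (median log2 change 4.24). They summed to 17640 to 22945 in caps labelled lhx1-AS/AcRA, 6218 to 10249 in AcRA caps, 481 to 1618 in lhx1-AS caps and 865 to 1723 in C caps. Of 4 organizer markers measured, 1 was higher in AcRA caps than in C caps (median log2 change 1.47). In caps labelled lhx1-AS/AcRA 3 were higher than in AcRA caps (median 4.14) and 3 than in lhx1-AS caps (median 6.40). The summed signal was 5628 to 14840 in caps labelled lhx1-AS/AcRA, 329 to 988 in AcRA caps, 85.1 to 136 in lhx1-AS caps and 44.5 to 143 in C caps. The part of these tissues in the carrier signals was not tested.

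Probe sets of the L and S copies of the same carrier were called unlike each other in several cases. slc7a8, the LAT2 light subunit of proximal tubule and other epithelia, had L copy signals of 634, 521 and 332 in caps labelled lhx1-AS/AcRA, 327, 312 and 317 in AcRA caps, 269, 141 and 126 in lhx1-AS caps and 169.7, 122 and 162 in C caps. The S copy, not the brightest and so not the one counted, had signals of 1386, 704 and 855 in caps labelled lhx1-AS/AcRA, 246, 193 and 140.0 in AcRA caps, 72.9, 59.1 and 44 in lhx1-AS caps and 74.2, 52.4 and 63 in C caps. The S copy separated the treated groups from each other and from untreated caps. It was higher in AcRA caps than in C caps (log2 change 1.59 ± 0.38, adjusted p = 0.022), in caps labelled lhx1-AS/AcRA than in AcRA caps (log2 change 2.33 ± 0.38, adjusted p = 0.00148) and in caps labelled lhx1-AS/AcRA than in lhx1-AS caps (log2 change 4.04 ± 0.38, adjusted p = 9.91e-06). The L copy was called in caps labelled lhx1-AS/AcRA against lhx1-AS caps (log2 change 1.51 ± 0.36, adjusted p = 0.0151). slc7a8 lost its call against lhx1-AS caps without lhx1-AS array II or III or lhx1-AS/AcRA array I or II (adjusted p between 0.0564 and 0.0775). slc2a9, a urate transporter, had S copy signals of 12.2, 24.5 and 17.8 in caps labelled lhx1-AS/AcRA, 403, 128 and 213 in AcRA caps, 5.17, 17.8 and 2.71 in lhx1-AS caps and 335, 152 and 57.9 in C caps, with all injected arrays below all uninjected ones. The S copy was lower in caps labelled lhx1-AS/AcRA than in AcRA caps (log2 change -3.67 ± 0.79, adjusted p = 0.00871) and in lhx1-AS caps than in C caps (log2 change -4.51 ± 0.79, adjusted p = 0.00451). The L copy of slc2a9 changed by -1.57 ± 0.79, adjusted p = 0.266 in treated caps and by -2.42 ± 0.79, adjusted p = 0.0833, or 0.0168 with experiment as a block in untreated caps. The difference between copies was not tested in these genes, and cross-hybridization between copies was not examined. Counting a gene when any of its probe sets was called gave 20 in place of 18 lower carriers in caps labelled lhx1-AS/AcRA against AcRA caps.

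**Figure D4:**
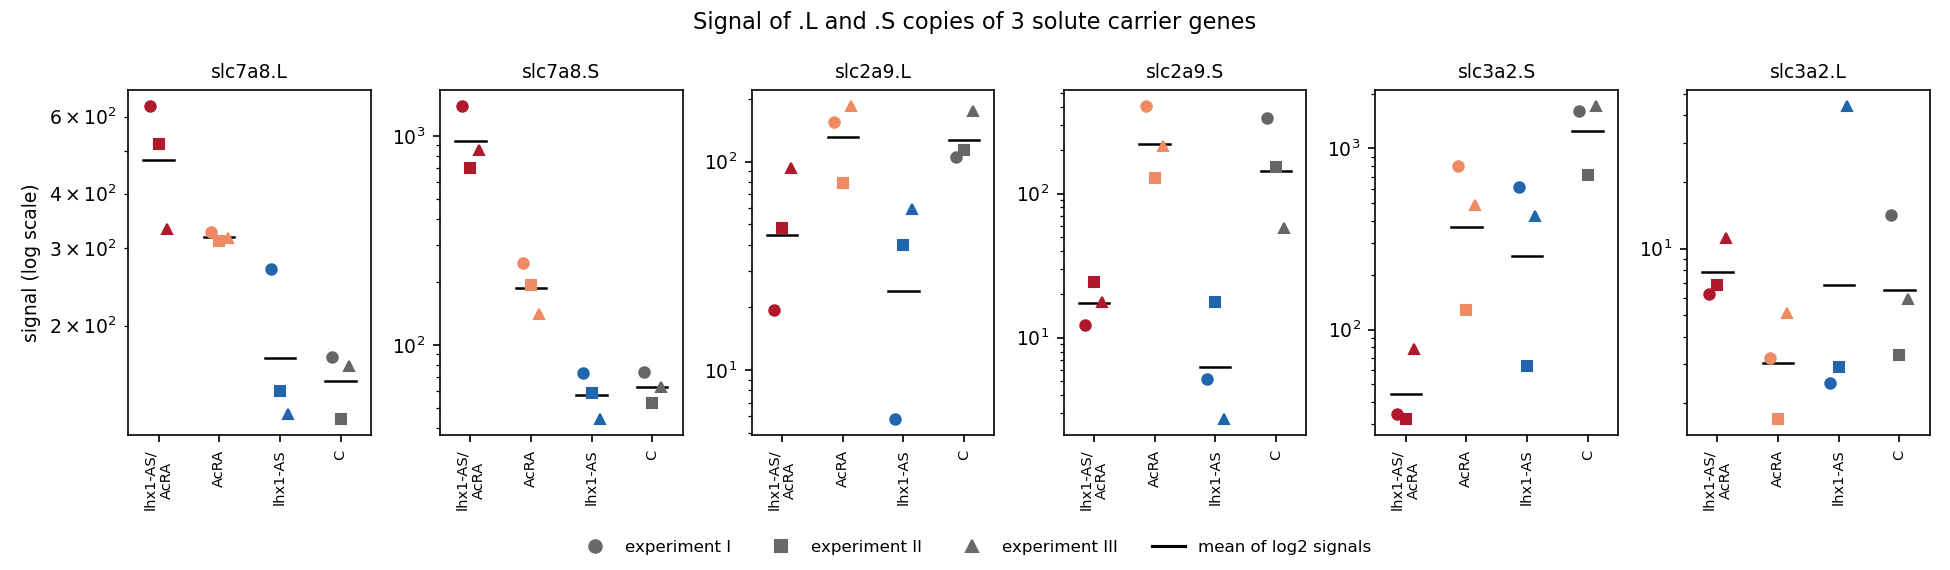
Signal on a log axis of the .L and .S probe sets of slc7a8, slc2a9 and slc3a2 on each array, by group (from left caps labelled lhx1-AS/AcRA, AcRA caps, lhx1-AS caps and C caps), with a marker shape for each experiment and a bar at the mean of the log2 signals. slc7a8.S and slc2a9.S separate groups that overlap or lie close together for the L copies, and slc3a2.L is dim in all groups.

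In 2 pairs of comparisons the group means share no array, although they share the 3 experiments. The calls came from 1 fit of all 12 arrays and so share its estimate of spread. Their lists are set side by side as a description. The effect of injection was compared in treated caps and in untreated caps. 9 carriers were lower in both, which is 50% of the 18 in treated caps and 75% of the 12 in untreated caps, where 417 of all probe sets lower in both made 38.8% and 60.2% of their lists. The 9 were slc4a11, slc10a7, slc18a1, slc19a3, slc22a5, slc25a13, slc26a6, slc37a1 and slc44a1, and slc25a28 was higher in both. Across the 103 genes the changes had a Pearson correlation of 0.59, against 0.47 across all probe sets, given as descriptions since genes are not independent. Carriers entered by their brightest probe sets, whereas all probe sets include dim and unnamed ones, so shares and correlations have unlike bases. For the AcRA response in injected and in uninjected caps, 4 carriers were higher in both, slc2a1, slc5a8.1, slc7a5 and slc16a6, which is 33.3% of the 12 in injected caps and 66.7% of the 6 in uninjected caps, where 293 of all probe sets made 47.3% and 61.2% of their lists. The 2 lower in both, slc18a1 and slc22a5, were 18.2% of the 11 in injected caps and 50% of the 4 in uninjected caps, where 214 of all probe sets made 33.8% and 52.7%. The correlation across the 103 genes was 0.73, against 0.56 across all probe sets. With the experiment as a block 12 carriers were lower after injection in both treated and untreated caps. They made 60% and 52.2% of their lists, where 959 of all probe sets made 51.8% and 59.6%. In both AcRA responses 9 carriers were higher, 52.9% of the injected and 81.8% of the uninjected list. For all probe sets these were 476, 48.4% and 58.0%. The 8 carriers lower in both made 53.3% and 80%, where 442 of all probe sets made 42.9% and 55.5%.

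**Figure D5:**
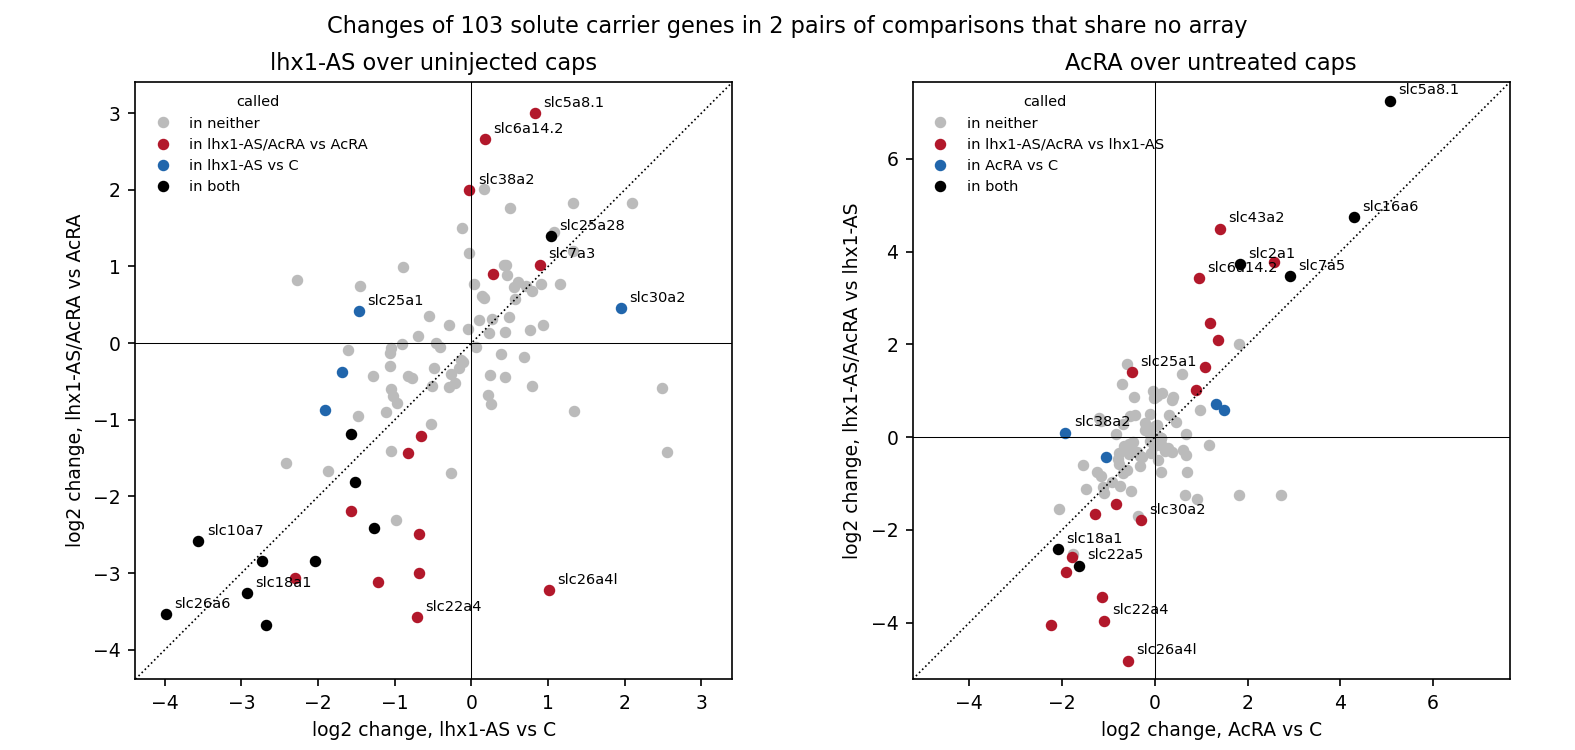
log2 change of the 103 solute carrier genes after injection in treated caps (vertical) against untreated caps (horizontal) on the left, and after AcRA in injected caps (vertical) against uninjected caps (horizontal) on the right, coloured by the comparison in which each was called, with a dotted line where both are equal. slc26a4l and slc25a1, the genes called in the test of the difference, lie off that line on opposite sides.

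Without the block, 64 of the 103 genes were called in no comparison on their brightest probe set. Some of the 64 were called with the block, slc25a25, slc25a29 and slc25a39 among them. slc2a9, slc39a7 and slc41a3 each had another probe set called. That of slc41a3 was lower in caps labelled lhx1-AS/AcRA than in lhx1-AS caps (log2 change -2.80). The 64 included the cation exchangers slc8a1 and slc8b1, the scaffold gene slc9a3r1 and 13 of the 19 SLC25 genes. The brightest of the 64 by class are described here. slc33a1, which carries acetyl-CoA into the endoplasmic reticulum, had signals between 300.1 and 1136, and its lowest value was that in caps labelled lhx1-AS/AcRA against lhx1-AS caps (log2 change -1.06 ± 0.31, adjusted p = 0.0525, or 0.0104 with experiment as a block). slc35b1, an ATP and ADP exchanger of the endoplasmic reticulum, had signals between 171 and 268, and changed by 0.13 ± 0.31 in AcRA caps against C caps. slc29a2, a nucleoside transporter, had signals between 100.2 and 359, and lay lower in lhx1-AS caps than in C caps (log2 change -0.98 ± 0.32, adjusted p = 0.0839, or 0.0287 with experiment as a block). slc52a1, of the riboflavin transporters, had signals between 136 and 674, and lay higher in lhx1-AS caps than in C caps (log2 change 0.91 ± 0.51, adjusted p = 0.329, or 0.017 with experiment as a block). slc8b1, a sodium and calcium exchanger of mitochondria, slc5a5, related to the iodide symporter of the thyroid, and slc13a4l, named for its likeness to a sulfate transporter, had signals between 25.7 and 105, between 1.27 and 59.9 and between 7.15 and 209. 14 of the 103 genes had a mean log2 signal under 5, and 0 of these 14 was called in any comparison. Dim genes varied widely between arrays, as did slc8a1, a sodium and calcium exchanger of excitable cells, with signals of 20.1, 4.21 and 8.35 in caps labelled lhx1-AS/AcRA, 24.8, 18.7 and 29 in AcRA caps, 14.8, 18.7 and 34 in lhx1-AS caps and 8.31, 2.53 and 2.22 in C caps. It was not called (log2 change 2.73 ± 0.88, adjusted p = 0.1 in AcRA caps against C caps). Of the partners of transporters listed, 10 of 31 were measured, and their median log2 change was -0.999 in AcRA caps against C caps and -0.74 in caps labelled lhx1-AS/AcRA against AcRA caps. The lower ones were the carbonic anhydrase ca12 in AcRA caps against C caps, and ca12 and ca2 in caps labelled lhx1-AS/AcRA against AcRA caps and against lhx1-AS caps, while 1 partner was higher in each of these 3 comparisons. sgk1, a kinase that raises the activity of many carriers and channels, had signals of 1567, 616 and 408 in caps labelled lhx1-AS/AcRA and 55.4, 76.9 and 103 in AcRA caps and was higher in caps labelled lhx1-AS/AcRA (log2 change 3.27 ± 0.56, adjusted p = 0.00203). atp1b3, a beta subunit of the sodium pump whose gradient drives sodium-coupled carriers, had signals of 8341, 9995 and 11361 in AcRA caps and 4899, 5829 and 4202 in C caps and was higher in AcRA caps (log2 change 0.99 ± 0.24, adjusted p = 0.0214). bsg, the chaperone of the monocarboxylate transporters MCT1 and MCT4, was not called, with a change of 0.01 ± 0.32 in AcRA caps against C caps.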

How the data were processed

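RNA of 12 pooled caps per sample was amplified, labelled with biotin and hybridized to the first-generation Affymetrix Xenopus laevis array. The authors quantified the arrays with GCOS, of a version not stated in these sources, and the deposited values are linear signal intensities per probe set, scaled so that the mean after trimming 2% at each end is equal on all 12 arrays. Detection calls were not used here. Signals under 1 were set to 1 (555 values, 0.298%, of which 3 belonged to solute carriers) and log2 was taken. Probe sets were named from the platform annotation: of 15611, 9304 had 1 symbol, 195 several and 6112 none, and 108 control probe sets were left out. 128 of the 131 carrier probe sets were found in the RefSeq gene table, and 0 symbols changed.

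All arrays entered 1 linear model of group means, with moderated variances and a trend on signal (limma 3.58.1 in R 4.3.3), checked on simulated data, and p was adjusted by Benjamini-Hochberg over 15503 probe sets. Values after ± are standard errors of a log2 change of 3 arrays against 3. Deviations from group means correlated between arrays of the same experiment (18 pairs, 0.152 to 0.269), so that experiment numbers pair the arrays, as the label numbering had it. Between arrays of different experiments the correlations were -0.19 to -0.0037 (36 pairs). Deviations cancel out within a group, which pushes these values negative, so they are no separate evidence of pairing. The p-values reflect only how RNAs of 3 experiments varied, and precision is limited by 3 arrays a group.

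Genes were named by these rules: the 12 largest called changes per comparison with mean log2 signal of at least 5 and 1 direction in all experiments, genes called for the difference of responses, kidney tubule carriers, and the 2 brightest uncalled genes of each class. Other named genes were chosen after their values were seen. The members, lists and rules were chosen with earlier results of these data known. The alternatives were experiment as a block, quantile normalization, a common median, 16 or 64 added to signals, no trend of the variance, the dimmest 40% of probe sets dropped, fitting only the groups compared, the methods' t-test, averaged probe sets, any probe set, and leaving out each array. The labels and the methods differ on the RNA reagent and on the stage at harvest, and the labels' stage is given.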

Additional observations from a re-analysis of the deposited data

Results flagged for a closer look

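2 carriers had AcRA responses that differed between injected and uninjected caps by the test of the difference itself. For slc26a4l, the pendrin-like gene, the response of injected caps minus that of uninjected caps was -4.24 on the log2 scale (limma, adjusted p = 0.0128), and it was negative in 3 of 3 experiments. The adjusted p was 0.0512 without AcRA array III and 0.1 without the variance trend. For slc25a1, the citrate carrier, the difference was 1.89 (adjusted p = 0.0418), positive in 3 of 3 experiments. The adjusted p of slc25a1 without 1 array lay above 0.05 for 11 of the 12 arrays and reached 0.123. Both genes kept the sign of their difference without each array in turn, between -4.68 and -3.65 for slc26a4l and between 1.73 and 2.07 for slc25a1. Groups of 3 arrays are too small to test single arrays as outliers.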

How the results depend on the processing

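No call of a solute carrier turned its direction under the alternatives that refit its probe set or averaged its probe sets. The block, the fit without a trend, the fit of compared groups alone and the methods' t-test leave the change as it is. They therefore could not turn it. Some other probe sets of slc3a2, slc25a17, slc25a28 and slc43a2 changed the other way, without a call. 41 of 73 calls were kept under all alternatives that refit single genes other than the methods' t-test. Arrays of the same experiment were paired, and with experiment as a block the counts of higher and lower carriers were 11 and 10 in AcRA caps against C caps, 11 and 20 in caps labelled lhx1-AS/AcRA against AcRA caps, 6 and 23 in lhx1-AS caps against C caps, 17 and 15 in caps labelled lhx1-AS/AcRA against lhx1-AS caps, and 1 and 3 for the difference of responses. The block added 44 calls and removed 0. Without the variance trend 1 carrier was lower in AcRA caps against C caps, 3 were higher in caps labelled lhx1-AS/AcRA against AcRA caps, 1 was higher and 6 lower in lhx1-AS caps against C caps, and 0 and 0 were called for the difference. With 16 added to the signal 8 carriers were lower in AcRA caps against C caps, and with 64 added 10 were, with 2 and 2 for the difference. A fit of AcRA and C caps alone called 7 lower. Quantile normalization called 0 positive differences. The methods' t-test gave 13 higher and 15 lower carriers at unadjusted p under 0.05 in AcRA caps against C caps, 10 and 21 in caps labelled lhx1-AS/AcRA against AcRA caps, 6 and 20 in lhx1-AS caps against C caps, and 14 and 16 in caps labelled lhx1-AS/AcRA against lhx1-AS caps. After Benjamini-Hochberg adjustment it gave 2 and 0 in AcRA caps against C caps, and 0 and 0 in each of the other 3. The causes of these shifts were not tested.

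Leaving out 1 array gave 4 to 7 higher and 1 to 6 lower carriers in AcRA caps against C caps, 3 to 7 and 12 to 19 in caps labelled lhx1-AS/AcRA against AcRA caps, and 1 to 3 and 6 to 14 in lhx1-AS caps against C caps. It gave 9 to 12 and 8 to 13 in caps labelled lhx1-AS/AcRA against lhx1-AS caps, and 0 to 1 and 0 to 2 for the difference. Signal over background could not be judged without detection calls, and 0 of the 14 carriers with mean log2 signals under 5 were called in the 5 tests.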
